A study of Mus musculus with 6 samples.

Results

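DNA damage response and repair genes were followed in CD8+ T cells of mice bearing B16-OVA tumors. The set was a list of 39 genes given by name, of 32285 genes in the deposited tables, and all 39 were found by symbol. Its rule uses no measured value, but it was drawn up with earlier results of these data known. They were grouped by role into 13 genes of homologous recombination, 6 break sensors and mediators, 4 checkpoint genes, *Trp53* and its regulator *Mdm2*, 5 genes of non-homologous end joining, 3 Fanconi genes, 3 genes of base excision and single-strand break repair, *Msh6* of mismatch repair, and 2 genes of nucleotide excision repair.

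B16-OVA is a melanoma line of the mouse, made to express ovalbumin. Control mice were CD8-Cre Rosa26Tomato, and CD8-IFNγRKO mice were CD8-Cre IFNgR1flox/flox Rosa26Tomato, so that every animal carried the Cre and the Tomato reporter and the floxed receptor gene set the groups apart. All mice were engrafted with B16-OVA, tumors and draining lymph nodes (LN) were taken on day 12, and cells positive for CD45, CD3, CD8 and Tomato were sorted. The cells of 3 mice were pooled for each genotype, and each tissue gave a library of its own, 4 libraries in all. The Cre is driven by a CD8 promoter, so that the deletion is directed to CD8 T cells and leaves the receptor in the tumor and in other host cells. Tumors were digested with enzymes and LN were mashed, so that tissue and preparation cannot be told apart. The labels give no age, and no tag ties a cell to a mouse.

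A cell meets DNA damage from outside and makes its own whenever it copies its genome. Double-strand breaks are found by the MRE11-RAD50-NBN complex and the kinase ATM, stalled replication forks by ATR, and both kinases signal through CHK2 and CHK1 to hold the cell cycle and to p53. Breaks are mended from the sister chromatid by homologous recombination, which is used in S and G2 phase, or by end joining, which works in every phase. Damaged bases, mismatches and bulky lesions are cut out by base excision, mismatch and nucleotide excision repair. Activated CD8 T cells divide rapidly, and many genes of recombination and replication repair are transcribed under E2F factors as cells enter S phase.

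To show what the promoters of these genes hold, RefSeq promoter sequences (GRCm38.p6, 250 bases before to 50 after each annotated start) were searched for 4 E2F words, TTTCCCGC, TTTGGCGC, TTTCGCGC and TTTGCCGC, on both strands. Of the 39 genes, 31 had a sequence, in 34 promoters. A word was present in 8 of these 31 genes (25.8%), or 9 of 34 promoters (26.5%), where 2.26% of all 32851 promoters held one. For lists described further on, 5.97% of promoters of other repair genes and 37.0% of those of S phase genes held one. The cell cycle homology word TTTGAA, common before genes of mitosis, was present in 1 of the 34 promoters, that of *Bard1* (2.94%), against 17.9% of all promoters. Each match is printed here with its surrounding bases because the genes that hold it fall on both sides of the comparisons that follow. Capitals mark the matching letters, sequences run 5′ to 3′ on the strand of the gene, and positions are counted from +1 at the annotated start.
*Bard1* (chr1:71103163-71103192, minus strand, matching letters -209 to -202): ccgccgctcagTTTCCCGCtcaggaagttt
*Brca2* (chr5:150522442-150522471, plus strand, matching letters -168 to -161): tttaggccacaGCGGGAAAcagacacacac
*Chek2* (chr5:110839820-110839849, plus strand, matching letters -152 to -145): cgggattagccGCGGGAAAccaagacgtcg
*Clspn* (chr4:126556990-126557019, plus strand, matching letters +22 to +29): accgcgtctggGCGCGAAAgctcgaacttc
*Mdc1* (chr17:35841471-35841500, plus strand, matching letters -16 to -9): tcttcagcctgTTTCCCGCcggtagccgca
*Msh6* (chr17:87975054-87975083, plus strand, matching letters +16 to +23): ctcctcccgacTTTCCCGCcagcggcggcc
*Rad51c* (chr11:87404477-87404506, minus strand, matching letters +12 to +19): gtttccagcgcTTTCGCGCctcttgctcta
*Rad51c* (chr11:87404941-87404970, minus strand, matching letters -5 to +3): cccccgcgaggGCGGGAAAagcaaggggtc
*Xrcc6* (chr15:82016312-82016341, plus strand, matching letters -46 to -39): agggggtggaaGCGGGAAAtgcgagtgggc

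*Clspn*, *Brca2*, *Bard1*, *Rad51c* and *Chek2* were among the genes whose level followed *Mki67* in the tumor. *Msh6* passed 1.5-fold with *Mki67* in the control tumor (1.72) and not in the CD8-IFNγRKO tumor (1.34). *Mdc1* and *Xrcc6* carry a word and did not pass 1.5-fold with *Mki67* in either tumor. *Brca1*, *Rad54l*, *Rad51ap1*, *Palb2*, *Blm*, *Xrcc3*, *Chek1*, *Fanca*, *Fanci* and *Mre11a* passed it in both tumors. None of these genes holds one of the words in the sequences searched. *Exo1*, *Fancd2*, *Nbn*, *Prkdc*, *Rad50*, *Rad54b*, *Xpc* and *Xrcc2* had no sequence to search. A match is a description of the letters and no measured binding.

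Levels are counts of a gene's unique molecular identifiers (UMIs), each standing for an RNA molecule, scaled to a total of 1000000 UMIs over all cells of a group (CPM). The library reads 5′ ends, so that a transcript gives its UMIs at 1 end and CPM was not divided by length. After filters, 8633 cells of the CD8-IFNγRKO tumor, 7098 of the control tumor, 6731 of CD8-IFNγRKO LN and 6640 of control LN were kept, with 28841136 to 93945200 UMIs per library and a median of 3863 to 9399 UMIs per cell. *Ifngr1* stood at 718 CPM in the control tumor and 237.5 in the CD8-IFNγRKO tumor, and at 182 and 137 in LN. Whether the counted reads lie in the deleted part of the gene is not given in the sources used here, and molecules of the deleted allele are not set apart. Library pairs shared 51 to 82 cell barcodes. The 5 CD8 T cell markers summed to 3991 to 6014 CPM, and the 10 myeloid markers to 18.2 and 19.8 CPM in tumors and 2.61 and 3.29 in LN, with *C1qa* at 0 in both LN libraries. The 5 melanoma markers summed to 2.33 and 3.35 CPM in tumors, and the 4 B cell markers to 18.2 and 22.2 in LN. The part of these cells in the results was not tested.

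The members gave 81929 UMIs in the CD8-IFNγRKO tumor, 38776 in the control tumor, 21107 in CD8-IFNγRKO LN and 21647 in control LN, and all 39 were detected in each library. Their summed level was 653 CPM in the control tumor, 872 in the CD8-IFNγRKO tumor, 723 in control LN and 732 in CD8-IFNγRKO LN. *Trp53* had the most UMIs over the 4 libraries (27296) and *Xrcc3* the fewest (313). Each group was 1 library, so that ratios are given with exact 95% intervals (in parentheses) that cover counting error only, and no p-value was computed. UMIs amplified from the same molecule count once, and mice within a library were not separated. A ratio of at least 1.5, or at most its inverse, with at least 100 UMIs over both groups is called past 1.5-fold. A pooled level does not separate the number of cells with a transcript from the amount in each.

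**Figure D1:**
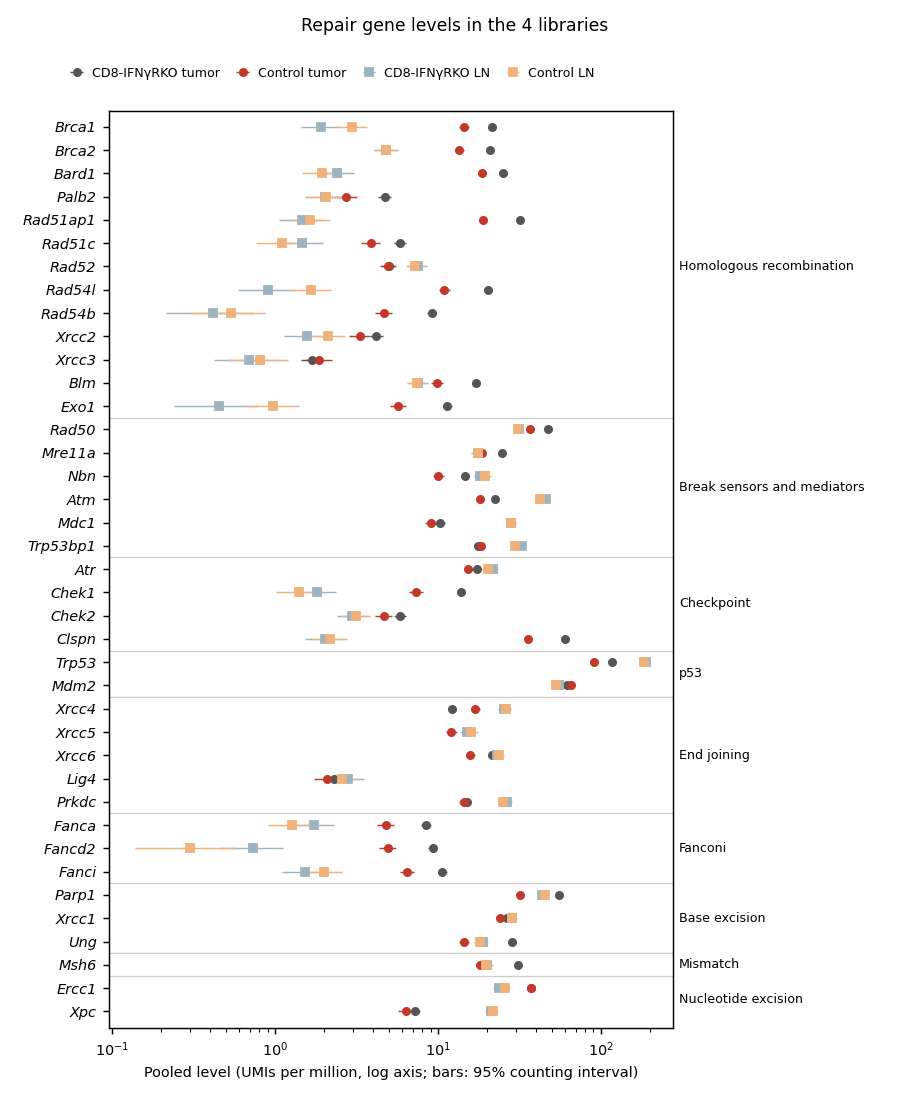
Pooled level of each of the 39 genes in the 4 libraries, in CPM on a log axis, with bars for the 95% counting interval. Circles are tumors and squares are LN. *Clspn* lies at 60.3 and 35.9 CPM in tumors and near 2 CPM in LN (2.01 and 2.17), and *Trp53* at 189 and 183 CPM in LN and 116 and 91.1 CPM in tumors.

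Between tissues, the summed levels of recombination, Fanconi and checkpoint genes were higher in tumor cells, while those of sensors and end joining genes and the level of *Trp53* were lower. In control mice 15 of 39 members were past 1.5-fold higher in tumor than in LN, where 27.1% of all genes were, and 9 were past it lower, where 25.1% of all genes were. In CD8-IFNγRKO mice 22 were higher (29.5% of all genes) and 8 lower (26.8%). With TCR, ribosomal, mitochondrial and heat shock genes left out of the library total, the counts were 14 higher and 15 lower in control mice and 18 higher and 8 lower in CD8-IFNγRKO mice, and the median log2 ratio of all genes moved to -0.28 and -0.23. The share of all genes past 1.5-fold is not given for this total, so that these counts are no result about the members alone. With every cell thinned to 1600 UMIs, 26 members had enough UMIs in control mice, of which 5 were higher (24.9% of all genes) and 10 lower (22.4%), with a median ratio of 0.744. The same 26 members without thinning gave 5 higher (24.7% of all genes) and 9 lower (23.3%) and a median of 0.78. In CD8-IFNγRKO mice 33 members had enough UMIs when thinned. Of these 16 were higher (26.5% of all genes) and 9 lower (22.7%), with a median ratio of 1.49. Without thinning the same 33 gave 17 higher (27% of all genes) and 8 lower (25.3%) and a median of 1.52. The tissues also differed in cell cycle genes: a list of 33 G2/M genes summed to 1962 CPM in the control tumor, 2817 in the CD8-IFNγRKO tumor, 169 in control LN and 177 in CD8-IFNγRKO LN.

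Between genotypes in the tumor, 16 of 39 members were past 1.5-fold higher in CD8-IFNγRKO cells, where 7.96% of all genes were, and none was past it lower, where 6.13% of all genes were. The median ratio of the members was 1.35 and that of all genes 1.01. Above 1 lay 35 of 39 members and 5955 of 11317 genes. *Rad51c* (1.51) and *Brca2* (1.54) lay just inside the limit, and *Brca1* (1.49) and *Nbn* (1.46) just outside. In LN none of the 30 members with enough UMIs was past 1.5-fold higher, where 0.546% of all genes were, and *Brca1* was past it lower, where 0.913% of all genes were. This call was lost, at ratios of 0.694 to 0.745, with 1 CPM added, with means of single cells, with thinned cells, without the 5% of cells with most UMIs and without the filter on *Cd2*, *Cd8a* and *Cd8b1*. The median ratio of members in LN was 0.998. A list of 29 S phase genes, none of them a member, moved with the tumor result, at 1913 CPM in the control tumor, 3181 in the CD8-IFNγRKO tumor, 680.3 in control LN and 641 in CD8-IFNγRKO LN. Heat shock genes (8) summed to 5114 CPM in the control tumor, 8029.7 in the CD8-IFNγRKO tumor, 4567 in control LN and 5810.3 in CD8-IFNγRKO LN, and 8 immediate early genes to 2858 CPM in the control tumor, 2048 in the CD8-IFNγRKO tumor, 4849.5 in control LN and 4594 in CD8-IFNγRKO LN. The part of these lists in the result was not tested. A comparison of cells with a like share of cell cycle UMIs is given further on.

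Cells with at least 1 *Mki67* UMI, a marker of cycling cells, were 26.3% of control tumor cells (25.2 to 27.3) and 45.9% of CD8-IFNγRKO tumor cells (44.9 to 47.0), and 0.633% and 0.579% of LN cells. Detection depends on depth, and the tumor cells differed in depth (median 6306 and 9399 UMIs). With every cell thinned to 1600 UMIs, the shares were 10.3% (9.57 to 11.1) and 17.7% (16.9 to 18.5) in tumors, and 0.234% and 0.314% in LN, with 701, 278, 237 and 41 shallower cells left out, in the same order. In the control tumor 23 of 39 members were past 1.5-fold higher in Mki67+ than in Mki67- cells (8.8% of all genes) and none was past it lower (3.94%), with a median ratio of 1.95. In the CD8-IFNγRKO tumor 21 were higher (6.2% of all genes) and none lower (5.11%), with a median of 1.54. Mki67+ cells were also deeper, with a median of 12582 and 13863 UMIs against 5350 and 6295. Depth and class cannot be told apart for a single cell. With the class taken from thinned cells and all their UMIs counted, 20 members of the control and 10 of the CD8-IFNγRKO tumor were past 1.5-fold higher. The median log2 ratio of all genes there was 0.0007 and -0.016. The share of all genes past 1.5-fold is not given for that setting, so that these counts are no result about the members alone.

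Within a class, the genotypes were compared again. Among Mki67+ cells 1 member, *Parp1*, was past 1.5-fold higher in CD8-IFNγRKO cells (4.13% of all genes) and none was past it lower (4.85%), with a median ratio of 1.18. Among Mki67- cells 18 of 38 members with enough UMIs were past it higher (9.26% of all genes) and none lower (4.67%), with a median of 1.39. These 18 were the 16 of all tumor cells with *Brca1* and *Nbn*. The S phase list summed to 1100.2 CPM in Mki67- cells of the control tumor and 2150.4 in those of the CD8-IFNγRKO tumor, and the G2/M list to 504 and 866 CPM. The levels of both lists in Mki67- cells thus moved with the members between genotypes.

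**Figure D2:**
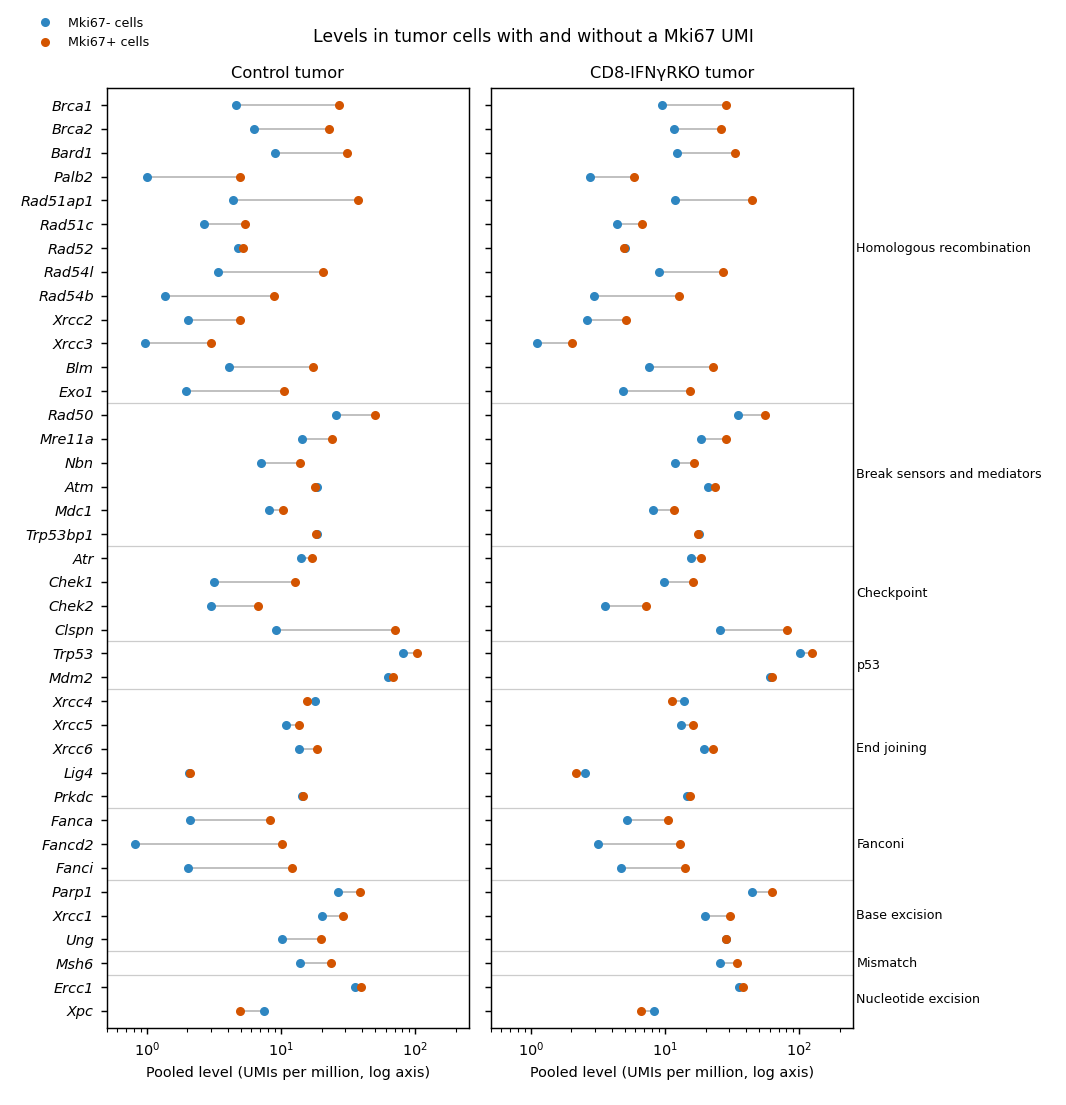
Pooled level of each gene in tumor cells with at least 1 *Mki67* UMI (orange) and without (blue), in CPM on a log axis, for the control tumor on the left and the CD8-IFNγRKO tumor on the right. The distance between the points is long for recombination and Fanconi genes, as for *Rad51ap1* (4.36 to 37.4 CPM in the control tumor), and short for *Ercc1* (35.3 to 39.2 CPM).

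Homologous recombination genes summed to 113 CPM in the control tumor, 179 in the CD8-IFNγRKO tumor, 35.2 in control LN and 33.1 in CD8-IFNγRKO LN. *Rad51ap1*, which encodes a factor of strand exchange in recombination, stood at 18.9 CPM in the control tumor and 32.1 in the CD8-IFNγRKO tumor, against 1.64 and 1.46 in the LN of control and CD8-IFNγRKO mice. Mki67+ against Mki67- cells gave 37.4 against 4.36 CPM in the control tumor and 44.2 against 11.8 in the CD8-IFNγRKO tumor. Both tumors lay above both LN libraries, and the ratio between genotypes in tumor was 1.7 (1.59 to 1.82) in all cells, 1.18 (1.1 to 1.27) in Mki67+ and 2.7 (2.23 to 3.29) in Mki67- cells. *Bard1*, the partner of BRCA1 in a ubiquitin ligase, stood at 18.6 CPM in the control tumor and 25.2 in the CD8-IFNγRKO tumor, against 1.94 and 2.39 in the LN of control and CD8-IFNγRKO mice. *Brca1*, which readies broken ends for recombination, stood at 14.4 CPM in the control tumor and 21.5 in the CD8-IFNγRKO tumor, against 2.97 and 1.91 in the LN of control and CD8-IFNγRKO mice. Mki67+ against Mki67- cells gave 26.8 against 4.6 CPM in the control tumor and 28.6 against 9.51 in the CD8-IFNγRKO tumor for *Brca1*. Its ratio between genotypes was 1.49 (1.38 to 1.62) in tumor and 0.641 (0.45 to 0.908) in LN, where it rests on 55 and 89 UMIs.

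*Brca2*, which acts on resected single-stranded DNA in recombination, was present at 13.5 CPM in the control tumor and 20.8 in the CD8-IFNγRKO tumor, against 4.78 and 4.82 in the LN of control and CD8-IFNγRKO mice. By class it stood at 22.8 against 6.31 CPM in the control tumor and 26.2 against 11.7 in the CD8-IFNγRKO tumor. The genotype ratio in tumor was 1.54 (1.41 to 1.67). *Palb2*, which joins BRCA1 to BRCA2, was low, at 2.71 CPM in the control tumor and 4.7 in the CD8-IFNγRKO tumor, against 2.04 and 2.01 in the LN of control and CD8-IFNγRKO mice. It stood at 4.89 against 0.992 CPM in the control tumor and 5.86 against 2.77 in the CD8-IFNγRKO tumor in Mki67+ and Mki67- cells, and the genotype ratio was 1.74 (1.45 to 2.09). *Rad51c*, which acts in strand exchange, was present at 3.87 CPM in the control tumor and 5.83 in the CD8-IFNγRKO tumor, against 1.1 and 1.46 in the LN of control and CD8-IFNγRKO mice. Between classes *Rad51c* gave 5.39 against 2.68 CPM in the control tumor and 6.72 against 4.34 in the CD8-IFNγRKO tumor, and its genotype ratio was 1.51 (1.29 to 1.77).

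*Rad54l* and *Rad54b* encode motor proteins that act on DNA during strand invasion. *Rad54l* stood at 10.9 CPM in the control tumor and 20.2 in the CD8-IFNγRKO tumor, against 1.67 and 0.901 in the LN of control and CD8-IFNγRKO mice. *Rad54b* stood at 4.63 CPM in the control tumor and 9.12 in the CD8-IFNγRKO tumor, against 0.535 and 0.416 in the LN of control and CD8-IFNγRKO mice. The genotype ratios in tumor were 1.85 (1.69 to 2.03) for *Rad54l* and 1.97 (1.72 to 2.27) for *Rad54b*, so that both were higher in CD8-IFNγRKO cells, while their LN levels were under 2 CPM. In Mki67+ against Mki67- cells, *Rad54l* gave 20.5 against 3.37 CPM in the control tumor and 26.9 against 9.02 in the CD8-IFNγRKO tumor, and *Rad54b* gave 8.8 against 1.35 CPM in the control tumor and 12.8 against 2.97 in the CD8-IFNγRKO tumor.

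*Blm*, a helicase that dissolves joined DNA molecules, was present at 9.85 CPM in the control tumor and 17.2 in the CD8-IFNγRKO tumor, against 7.42 and 7.56 in the LN of control and CD8-IFNγRKO mice, and in Mki67+ against Mki67- cells at 17.2 against 4.09 CPM in the control tumor and 22.8 against 7.62 in the CD8-IFNγRKO tumor. *Exo1*, the nuclease that trims broken ends, was present at 5.69 CPM in the control tumor and 11.4 in the CD8-IFNγRKO tumor, against 0.969 and 0.451 in the LN of control and CD8-IFNγRKO mice, and between classes at 10.4 against 1.95 CPM in the control tumor and 15.4 against 4.82 in the CD8-IFNγRKO tumor. The genotype ratio was 1.74 (1.58 to 1.92) for *Blm* and 2.01 (1.78 to 2.28) for *Exo1*, which had the largest ratio of the 39 genes in tumor. In Mki67+ cells *Exo1* gave 1.47 (1.28 to 1.69). The remaining 3 recombination genes were low and not past 1.5-fold between the tumors, *Xrcc2* at 1.26, *Rad52* at 1.01 and *Xrcc3* at 0.914. *Rad52* alone of the 13 was not past 1.5-fold between Mki67 classes in either tumor, with 1.09 and 0.981. It was lower in tumor than in LN in control mice (4.93 against 7.25 CPM) and in CD8-IFNγRKO mice (4.99 against 7.49 CPM).

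**Figure D3:**
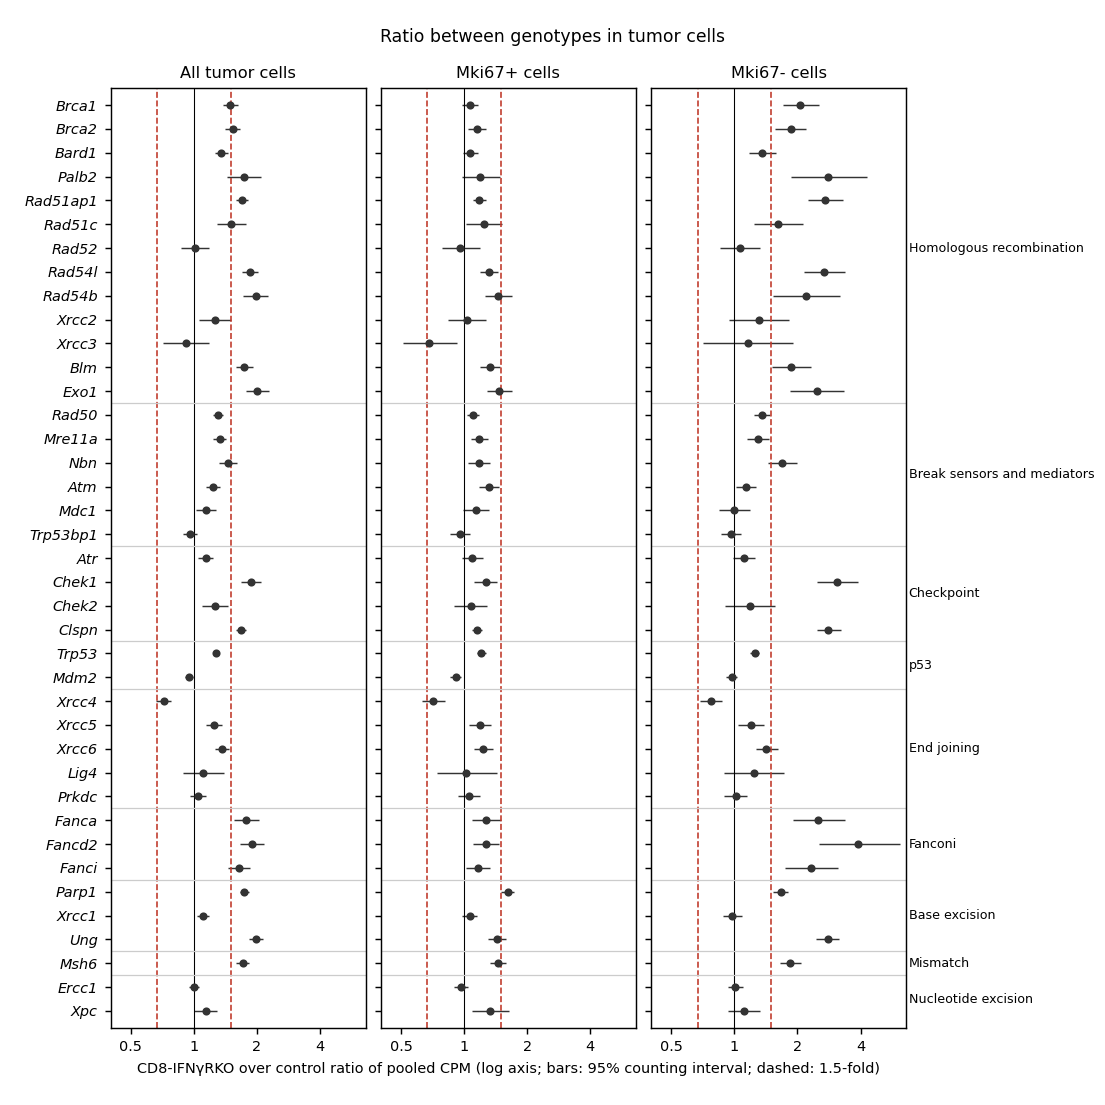
Ratio of pooled CPM, CD8-IFNγRKO over control, for each gene in all tumor cells, in Mki67+ cells and in Mki67- cells, on a log axis with bars for the 95% counting interval. Dashed lines mark 1.5-fold in either direction. In Mki67+ cells *Parp1* (1.61) lies past the upper line, and in Mki67- cells *Fancd2* reaches 3.90 with an interval from 2.54 to 6.19.

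Break sensors and mediators summed to 111 CPM in the control tumor, 137 in the CD8-IFNγRKO tumor, 168 in control LN and 174 in CD8-IFNγRKO LN, so that LN lay above both tumors. *Rad50*, an arm of the complex that clamps broken ends, stood at 36.5 CPM in the control tumor and 47.5 in the CD8-IFNγRKO tumor, against 30.9 and 31.2 in the LN of control and CD8-IFNγRKO mice. Between Mki67 classes it stood at 50.1 against 25.8 CPM in the control tumor and 55 against 34.8 in the CD8-IFNγRKO tumor. *Mre11a* and *Nbn* encode the other two subunits, the nuclease and the adaptor for ATM, and gave genotype ratios of 1.33 and 1.46 in tumor beside 1.3 for *Rad50*. *Nbn* was lower in the control tumor than in LN (10 against 19.4 CPM), unlike *Rad50* (36.5 against 30.9 CPM).

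*Atm*, the kinase that answers double-strand breaks, was lower in both tumors than in both LN libraries, with 18.1 CPM in the control tumor and 22.4 in the CD8-IFNγRKO tumor, against 42.2 and 46.3 in the LN of control and CD8-IFNγRKO mice. It did not follow *Mki67*, at 17.8 against 18.4 CPM in the control tumor and 23.3 against 20.8 in the CD8-IFNγRKO tumor. *Mdc1* and *Trp53bp1*, which build up at marked chromatin around a break, were lower in tumor as well, *Mdc1* with a tumor over LN ratio of 0.32 (0.287 to 0.357) in control mice and 0.368 (0.335 to 0.405) in CD8-IFNγRKO mice, and *Trp53bp1* with 0.617 (0.564 to 0.675) and 0.54 (0.498 to 0.585). None of these 3 was past 1.5-fold between genotypes or between Mki67 classes.

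Checkpoint genes summed to 63.2 CPM in the control tumor, 97.4 in the CD8-IFNγRKO tumor, 27 in control LN and 28.5 in CD8-IFNγRKO LN. *Clspn* encodes claspin, the adaptor through which ATR activates CHK1 at stalled forks. It stood at 35.9 CPM in the control tumor and 60.3 in the CD8-IFNγRKO tumor, against 2.17 and 2.01 in the LN of control and CD8-IFNγRKO mice. Mki67+ against Mki67- cells gave 70 against 9.14 CPM in the control tumor and 80.9 against 25.7 in the CD8-IFNγRKO tumor. The 2 tumors lay far above LN, and the tumor over LN ratio was 16.5 (12.9 to 21.5) in control and 30 (23.2 to 39.5) in CD8-IFNγRKO mice. The genotype ratio of *Clspn* was 1.68 (1.6 to 1.77) in all tumor cells, 1.16 (1.09 to 1.22) in Mki67+ and 2.81 (2.47 to 3.21) in Mki67- cells. *Chek1*, the kinase that claspin serves, stood at 7.35 CPM in the control tumor and 13.8 in the CD8-IFNγRKO tumor, against 1.4 and 1.8 in the LN of control and CD8-IFNγRKO mice. By class *Chek1* gave 12.7 against 3.16 CPM in the control tumor and 16.1 against 9.79 in the CD8-IFNγRKO tumor, and the genotype ratio was 1.87 (1.68 to 2.09). *Chek2*, the kinase downstream of ATM, gave a genotype ratio of 1.26 (1.09 to 1.46) and *Atr* 1.14 (1.05 to 1.24), neither past 1.5-fold.

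*Trp53*, which encodes p53, was the most abundant member in UMIs, at 91.1 CPM in the control tumor and 116 in the CD8-IFNγRKO tumor, against 183 and 189 in the LN of control and CD8-IFNγRKO mice. Both LN libraries lay above both tumors, and the tumor over LN ratio was 0.497 (0.479 to 0.516) in control and 0.616 (0.597 to 0.637) in CD8-IFNγRKO mice. In Mki67+ against Mki67- cells it gave 103 against 81.4 CPM in the control tumor and 125 against 102 in the CD8-IFNγRKO tumor. *Mdm2*, the ligase that degrades p53 and is itself a p53 target, stood at 65.1 CPM in the control tumor and 61.6 in the CD8-IFNγRKO tumor, against 53.2 and 55.6 in the LN of control and CD8-IFNγRKO mice. By class *Mdm2* stood at 68.6 against 62.4 CPM in the control tumor and 62.4 against 60.4 in the CD8-IFNγRKO tumor. The genotype ratio in tumor was 1.28 (1.24 to 1.32) for *Trp53* and 0.947 (0.909 to 0.986) for *Mdm2*. Of a list of 19 p53 target genes without *Mdm2*, none was past 1.5-fold higher in the CD8-IFNγRKO tumor and 4 were past it lower (*Btg2*, *Ccng1*, *Phlda3* and *Plk2*), where 6.13% of all genes were, with a list median of 0.862. With cells set side by side in the 5 bins of cell cycle share described further on, 1 was lower (4.11% of all genes). The list median there was 0.976. Among Mki67+ cells 5 of the 19 were past 1.5-fold lower (4.85% of all genes), with a list median of 0.796. Among Mki67- cells 2 were (4.67% of all genes), with a list median of 0.912. In LN the list median was 1.06.

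Genes of end joining summed to 61.2 CPM in the control tumor, 66 in the CD8-IFNγRKO tumor, 93.6 in control LN and 92.5 in CD8-IFNγRKO LN. *Xrcc4*, the scaffold that holds DNA ligase IV, was the member with the lowest genotype ratio in tumor, 0.718 (0.659 to 0.782), which did not pass 1.5-fold. It stood at 16.9 CPM in the control tumor and 12.2 in the CD8-IFNγRKO tumor, against 26.2 and 25.3 in the LN of control and CD8-IFNγRKO mice. In Mki67+ against Mki67- cells *Xrcc4* gave 15.7 against 17.9 CPM in the control tumor and 11.2 against 13.8 in the CD8-IFNγRKO tumor, lower in CD8-IFNγRKO cells of both classes. *Xrcc6* and *Xrcc5* encode the Ku subunits that ring a broken end, and gave 1.37 (1.26 to 1.48) and 1.25 (1.14 to 1.36). *Prkdc*, the kinase that Ku recruits, gave 1.04 (0.958 to 1.14), and *Lig4*, at 2.07 to 2.81 CPM in the 4 libraries, 1.11 (0.886 to 1.4). No gene of end joining was past 1.5-fold between Mki67 classes.

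Fanconi genes act on crosslinked DNA at replication forks. *Fanca* is a subunit of the core ligase, and *Fancd2* and *Fanci* are the pair it modifies. *Fancd2* stood at 4.9 CPM in the control tumor and 9.26 in the CD8-IFNγRKO tumor, against 0.301 and 0.728 in the LN of control and CD8-IFNγRKO mice. Mki67+ against Mki67- cells gave 10.1 against 0.812 CPM in the control tumor and 12.9 against 3.17 in the CD8-IFNγRKO tumor, the widest ratio between classes of any member in the control tumor, 12.4 (8.36 to 19.2). *Fanca* stood at 4.76 CPM in the control tumor and 8.49 in the CD8-IFNγRKO tumor, against 1.27 and 1.73 in the LN of control and CD8-IFNγRKO mice, and *Fanci* at 6.46 CPM in the control tumor and 10.6 in the CD8-IFNγRKO tumor, against 2.0 and 1.53 in the LN of control and CD8-IFNγRKO mice. All 3 were near or below 2 CPM in LN and above 4 CPM in both tumors. By class *Fanca* gave 8.18 against 2.07 CPM in the control tumor and 10.4 against 5.22 in the CD8-IFNγRKO tumor. *Fanci* gave 12.1 against 2.01 CPM in the control tumor and 14.2 against 4.68 in the CD8-IFNγRKO tumor. The genotype ratios in tumor were 1.78 (1.56 to 2.05) for *Fanca*, 1.89 (1.65 to 2.17) for *Fancd2* and 1.64 (1.46 to 1.85) for *Fanci*.

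Genes of base excision and single-strand break repair were ordered differently. *Parp1*, which senses strand breaks and marks them with ADP-ribose chains, stood at 31.9 CPM in the control tumor and 55.7 in the CD8-IFNγRKO tumor, against 45.5 and 43.4 in the LN of control and CD8-IFNγRKO mice. Its level in the control tumor was below LN and that in the CD8-IFNγRKO tumor above LN. Mki67+ against Mki67- cells gave 38.8 against 26.5 CPM in the control tumor and 62.5 against 44.1 in the CD8-IFNγRKO tumor. The genotype ratio was 1.74 (1.65 to 1.84) in all tumor cells, 1.61 (1.5 to 1.73) in Mki67+ and 1.66 (1.53 to 1.81) in Mki67- cells. *Ung*, the glycosylase that removes uracil from DNA, stood at 14.5 CPM in the control tumor and 28.5 in the CD8-IFNγRKO tumor, against 18 and 18.8 in the LN of control and CD8-IFNγRKO mice, and by class at 19.9 against 10.2 CPM in the control tumor and 28.6 against 28.4 in the CD8-IFNγRKO tumor. The control tumor again lay below LN and the CD8-IFNγRKO tumor above it. In the CD8-IFNγRKO tumor the Mki67 classes held about the same level of *Ung*, with a ratio of 1.01 (0.93 to 1.09), against 1.95 (1.7 to 2.24) in the control tumor. The genotype ratio was 1.97 (1.83 to 2.13) in all cells and 2.79 (2.46 to 3.17) in Mki67- cells. *Xrcc1*, the scaffold of this repair, stood at 24 CPM in the control tumor and 26.6 in the CD8-IFNγRKO tumor, against 28.3 and 28.5 in the LN of control and CD8-IFNγRKO mice, and by class at 28.8 against 20.3 CPM in the control tumor and 30.6 against 19.8 in the CD8-IFNγRKO tumor. Its genotype ratio was 1.11 (1.04 to 1.18).

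*Msh6*, a mismatch sensor, stood at 18.1 CPM in the control tumor and 31 in the CD8-IFNγRKO tumor, against 19.7 and 20.1 in the LN of control and CD8-IFNγRKO mice. The control tumor was close to both LN libraries and the CD8-IFNγRKO tumor above them. By class *Msh6* gave 23.7 against 13.8 CPM in the control tumor and 34.3 against 25.5 in the CD8-IFNγRKO tumor, and the genotype ratio was 1.71 (1.59 to 1.84). *Ercc1*, a subunit of the nuclease of nucleotide excision repair, stood at 37 CPM in the control tumor and 37.1 in the CD8-IFNγRKO tumor, against 25.8 and 23.5 in the LN of control and CD8-IFNγRKO mice. It was alike in both tumors, with a ratio of 1.0 (0.949 to 1.06), and by class at 39.2 against 35.3 CPM in the control tumor and 38 against 35.7 in the CD8-IFNγRKO tumor. *Xpc*, which finds distorted DNA, was lower in tumor, 6.33 CPM in the control tumor and 7.2 in the CD8-IFNγRKO tumor, against 21.7 and 21.1 in the LN of control and CD8-IFNγRKO mice. The tumor over LN ratio of *Xpc*, 0.291 (0.256 to 0.331) in control and 0.341 (0.305 to 0.381) in CD8-IFNγRKO mice, was the lowest of the 39 genes in control mice and in CD8-IFNγRKO mice.

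RefSeq places 12 of the 39 genes over part of another protein-coding gene (*Rad54l*, *Rad54b*, *Xrcc3*, *Trp53bp1*, *Atr*, *Xrcc6*, *Fanca*, *Fancd2*, *Fanci*, *Ung*, *Msh6* and *Ercc1*). Whether the counting used strand is not given in the sources used here, so that UMIs of these genes may include some of the neighbour.

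Mki67+ cells were then divided into 3 equal parts by the share of S phase UMIs among the UMIs of the S phase and G2/M lists, which hold no member. On the S side of the control tumor 10 of 32 members with enough UMIs were past 1.5-fold higher than on the G2/M side (4.96% of all genes) and 1, *Fancd2*, was past it lower (4.79%). In the CD8-IFNγRKO tumor 15 of 37 were higher (7.49%) and 1, *Chek2*, lower (5.15%). *Ung* differed most, at 44, 13.5 and 2.48 CPM from the S side through the middle to the G2/M side in the control tumor, and 64.5, 18.5 and 3.28 in the CD8-IFNγRKO tumor. The ratio of the 2 sides was 17.7 (11.4 to 28.9) and 19.7 (15.3 to 25.8).

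*Chek1*, *Exo1*, *Msh6* and *Nbn* followed in the same direction in both tumors, with S over G2/M ratios of 3.07 and 2.71 for *Chek1*, 2.78 and 2.73 for *Exo1*, 2.15 and 2.43 for *Msh6*, and 2.12 and 2.03 for *Nbn*. *Brca1*, *Rad54l*, *Parp1*, *Prkdc* and *Xrcc6* were past 1.5-fold higher on the S side in both as well. *Fancd2* was lower on the S side of the control tumor (0.64 (0.458 to 0.89)), and in the CD8-IFNγRKO tumor its ratio was 0.851 (0.706 to 1.03). *Rad51ap1* and *Bard1*, which differed widely between Mki67 classes, gave 1.13 and 1.21, and 0.778 and 1.04, and were not past 1.5-fold. *Ung*, with little difference between Mki67 classes in the CD8-IFNγRKO tumor, thus had the largest difference between sides.

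**Figure D4:**
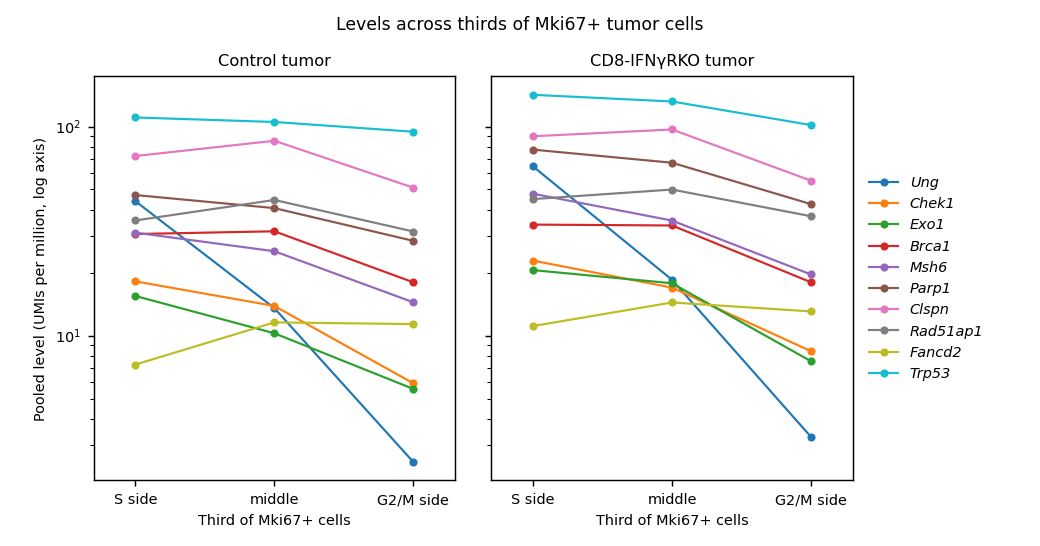
Pooled level of 10 genes in Mki67+ tumor cells divided into 3 equal parts by the share of S phase UMIs, in CPM on a log axis, for the control and the CD8-IFNγRKO tumor. *Ung* falls from 44.0 to 2.48 CPM and from 64.5 to 3.28 CPM between the S side and the G2/M side, while *Fancd2* is lowest on the S side of both tumors (7.27 and 11.1 CPM).

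To set cells of a like place in the cycle side by side, tumor cells of both genotypes were placed in 5 bins of equal size by the share of their UMIs on the 62 S phase and G2/M genes. The lowest bin held 2003 control and 1143 CD8-IFNγRKO cells, and the highest 901 and 2246. The choice of this comparison was made after the data had been seen. Recombination genes summed to 20.4 CPM in control and 19 in CD8-IFNγRKO cells of the lowest bin, 84.3 and 69.8 in the middle bin, and 268 and 280.3 in the highest. With the 5 bins given equal weight, no member was past 1.5-fold higher (5.81% of all genes) and 1, *Xrcc3*, was past it lower (4.11%), at 0.589. The median ratio of the members was 1.09 and that of all genes 1.02, and 26 of 39 members lay above 1. The share of all genes above 1 is not given for the bins, so that this count is no result about the members alone. The bins did not even out the balance of the 2 lists or the depth. In the fourth bin S phase genes summed to 3354 CPM in control and 3978 in CD8-IFNγRKO cells and G2/M genes to 2523 and 2056 CPM, with a median of 10102 and 12184.5 UMIs per cell, and their part in the result was not tested. The S phase list had a median of 1.14, the G2/M list 0.879 and the heat shock list 1.78 in this comparison.

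*Parp1* was higher in CD8-IFNγRKO cells in each bin, with 23.8 against 17.9 CPM in the lowest bin, 50.8 against 35.9 CPM in the middle and 61 against 42.7 CPM in the highest, and a ratio of the bin means of 1.43. The ratio in single bins ran from 1.33 to 1.53, and the counting interval lay above 1 in all 5. *Ung* (1.33) and *Msh6* (1.32) were above 1 in all 5 bins, with single-bin ratios from 1.16 to 1.57 and from 1.09 to 1.42. The intervals of *Ung* in the 3 lower bins and of *Msh6* in the lowest bin included 1. *Nbn*, *Atm*, *Chek1*, *Trp53*, *Xrcc5*, *Xrcc6* and *Fanca* also lay above 1 in all 5 bins. All 5 intervals of *Xrcc5* included 1, as did most of those of *Nbn*, *Chek1* and *Fanca* and some of those of *Atm*, *Trp53* and *Xrcc6*. The ratios of the bin means of these genes ran from 1.13 (*Trp53* and *Xrcc5*) to 1.21 (*Fanca*). *Xrcc4* was below 1 in all 5 bins, from 0.703 to 0.933, with 11.6 against 16.5 CPM in the highest. Its intervals in the 2 lowest bins included 1. *Bard1*, *Xrcc1* and *Xrcc3* were also below 1 in all 5 bins. All 5 intervals of *Xrcc1* and some of those of *Bard1* and *Xrcc3* included 1. The share of all genes above or below 1 in all 5 bins is not given, so that these runs are no result about the members alone. *Clspn*, with a ratio of 1.68 over all tumor cells, gave 73.9 against 70.1 CPM in the fourth bin and 96.2 against 97.5 CPM in the highest, and *Brca1* gave 35 against 36.3 CPM there. *Brca1* was below 1 in all 5 bins, with 0.586 (0.444 to 0.771) in the middle bin and intervals that included 1 in the other 4. *Rad51ap1* gave 7.0 against 10.5 CPM in the middle bin and 55.8 against 52.8 CPM in the highest, with a ratio of 0.669 (0.517 to 0.865) in the middle bin and intervals that included 1 in the other 4.

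**Figure D5:**
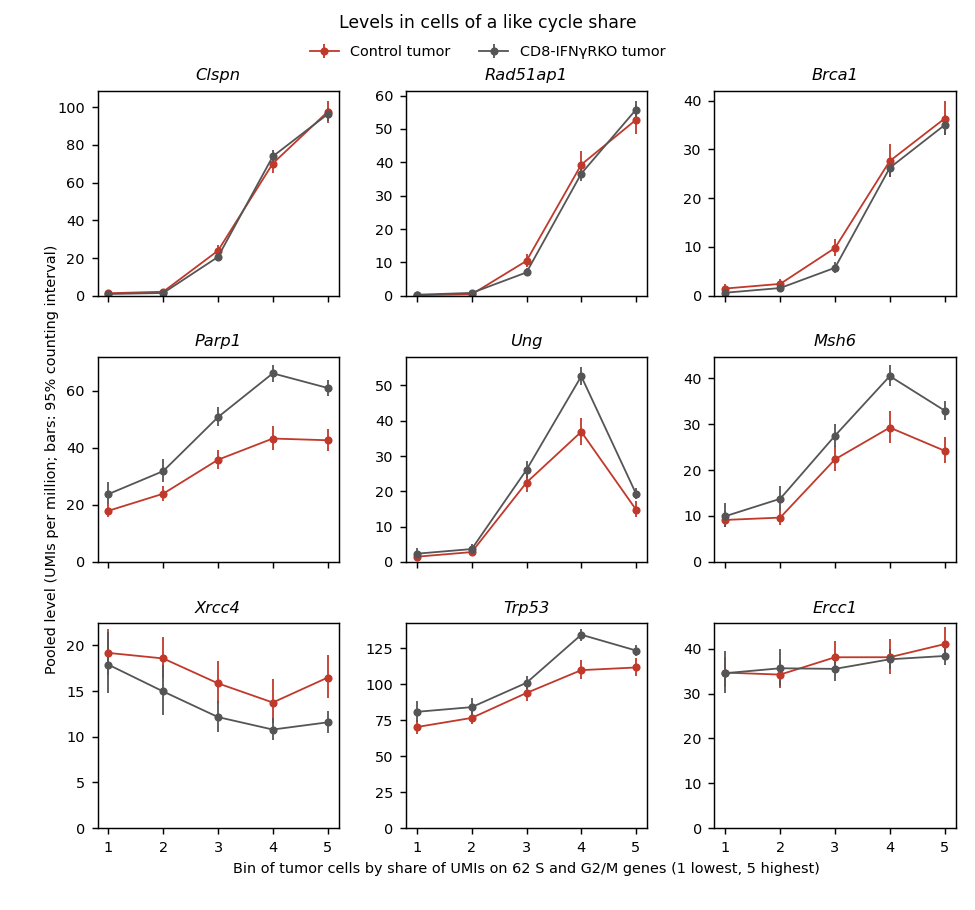
Pooled level of 9 genes in tumor cells placed in 5 bins by the share of UMIs on 62 S phase and G2/M genes, in CPM with bars for the 95% counting interval, for control (red) and CD8-IFNγRKO cells (grey). *Clspn* reaches 97.5 and 96.2 CPM in the highest bin, while *Parp1* is 42.7 and 61.0 CPM there and *Xrcc4* 16.5 and 11.6 CPM.

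The same limits were applied to LN cells, of which 62.3% in control and 62.8% in CD8-IFNγRKO mice fell in the lowest bin. In that bin, recombination genes summed to 27.8 and 27.3 CPM in LN and to 20.4 and 19 in tumor (control first). Sensors summed to 163 and 170.2 CPM in LN against 84.7 and 92 in tumor, and *Trp53* with *Mdm2* to 231 and 245 against 133 and 145. End joining genes summed to 90.2 and 93.8 CPM in LN against 54.9 and 60.2 in tumor. The 3 genes of base excision summed to 85.1 and 85.9 CPM against 37.1 and 40.9. In cells with few cycle UMIs the sums of these 5 groups were therefore all lower in tumor, that of recombination included. Over all cells the recombination sum was higher in tumor. Also lower in tumor in this bin were checkpoint genes (22.9 and 24.3 CPM in LN against 17.5 and 16), Fanconi genes (2.51 and 3.19 against 1.4 and 2.65) and *Msh6* (18.5 and 19.7 against 9.14 and 9.96). No share of all genes and no other library total is given for this bin, so that these sums are no result about the members alone. Single recombination genes went both ways, though their LN levels are given over all LN cells and not for this bin. *Bard1* was higher in tumor, at 5.19 and 4.67 CPM in this bin of the tumors, against 1.94 and 2.39 over all LN cells. *Blm* was lower in tumor, as the sum was, at 1.24 and 1.71 CPM against 7.42 and 7.56. The values of single genes set all LN cells beside this bin of the tumors, so that the part of any gene in the lower sum cannot be read from them. The 2 nucleotide excision genes went opposite ways in this bin, with *Ercc1* at 25.3 and 22.9 CPM in LN against 34.7 and 34.5 in tumor and *Xpc* at 21.2 and 21.3 against 8.48 and 10.4.

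A list of 76 other repair genes was described in the same way. In the CD8-IFNγRKO tumor 15 of 75 with enough UMIs were past 1.5-fold higher (7.96% of all genes) and none lower (6.13%), with a median ratio of 1.25. The 15 included *Lig1*, the ligase of replication, *Topbp1*, which activates ATR, and *Timeless* and *Tipin*, which travel with the fork beside claspin. In LN none of 67 was higher (0.546% of all genes) and 1, *Fignl1*, was lower (0.913%). In Mki67+ tumor cells 2 of 75 were higher, *Recql4* and *Timeless*, a share below that of all genes (4.13%), and in Mki67- cells 15 of 71 were (9.26% of all genes). None was lower in either class (4.85% and 4.67% of all genes).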

How the data were processed

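Single-cell RNA sequencing of sorted CD8+ Tomato+ cells, 1 library of 5′ transcript ends for each of 2 tissues and 2 genotypes, was used. Reads were aligned by the authors to a 10x mouse reference (mm10) in Cell Ranger 6.0.0. The deposited values are the count of UMIs on each gene in each barcode called a cell, not normalized. TCR contigs were deposited for 2 further libraries and were not used here. The 39 genes and all gene lists were chosen with earlier results of these data known.

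Following the study's methods, a barcode was kept if it had 200 to 6000 genes, mitochondrial UMIs of 3% or less and a largest gene of 20% or less. The study also filtered on *Cd2*, *Cd8a* and *Cd8b1* and took out a cluster of macrophages. In their place, a rule chosen here asked for a UMI of each of these 3 genes and removed the 0 to 5 barcodes per library with 4 or more of 10 myeloid markers. No doublet caller was run, and 50 barcodes of the CD8-IFNγRKO tumor and 23 of the control tumor lay over the upper limit on genes. Counts were pooled per library or class and divided by all UMIs of that group (CPM). Each group was 1 library, so that no test was run. Exact 95% intervals were taken from the Poisson distribution (CPM), from the binomial given the sum of both counts (ratios) and after Clopper and Pearson (shares). They hold counting error alone and narrow with the number of UMIs. Genes described in full were those past 1.5-fold between genotypes in tumor, the 10 with the most UMIs and at least 1 per role, and *Brca1* was added after its values were seen.

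Python 3.11.15 with numpy 2.4.6, scipy 1.17.1, pandas 2.3.3 and matplotlib 3.10.9 was used. On simulated counts of 11286 genes for the tumor comparison, intervals held the true ratio of 96.5% of 200 changed genes, 99.5% of them were past 1.5-fold and 0.17% of unchanged genes were. These counts were drawn with counting error alone, as the intervals assume, and the changed genes were set well past 1.5-fold. The shares check the computation and give no error rate for differences between mice or libraries. Alternatives were other cell filters, a minimum of 20 UMIs, 1 CPM added, a library total without TCR, ribosomal, mitochondrial and heat shock genes, means of single cells, a limit of 2 *Mki67* UMIs and thinning to 1600 UMIs. Bins by cell cycle share and classes from thinned cells were added after the data had been seen.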

Additional observations from a re-analysis of the deposited data

Results flagged for a closer look

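The ratio of *Brca1* between CD8-IFNγRKO and control cells pointed in opposite directions in the 2 tissues, 1.49 in tumor and 0.641 in LN. Other members did so as well. In tumor 35 of 39 members lay above 1, where 5955 of 11317 genes did. In LN 15 of the 30 members with at least 100 UMIs did, where 5925 of 10080 genes did. The LN count is thus no result about the members alone. Of these 30, *Xrcc2* gave 1.26 in tumor and 0.741 (0.494 to 1.1) in LN, and *Parp1* 1.74 and 0.953 (0.882 to 1.03). With fewer than 100 UMIs in LN, *Exo1* gave 2.01 in tumor and 0.465 (0.222 to 0.923) in LN, and *Rad54l* 1.85 and 0.54 (0.322 to 0.884). *Fancd2*, also under that limit, lay above 1 in both, at 1.89 and 2.42 (1.06 to 6.0). Each value compares 1 library with 1 library, and the difference between the tissues was not tested. The LN value of *Brca1* was not past 1.5-fold, at 0.694 to 0.745, under 5 of the 9 other settings run for it. Some of the 9 could not move it: no LN barcode lay over the upper limit on genes, and a minimum of 20 UMIs leaves a ratio as it is. The LN value of *Brca1* rests on 55 UMIs in CD8-IFNγRKO and 89 in control cells, of which 19 and 28 came from 39 and 42 Mki67+ cells.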

How the results depend on the processing

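No paired analysis was possible because each tissue and genotype had 1 library, and leaving out a replicate was not run for the same reason.

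Over 10 other settings, the counts of members past 1.5-fold kept within 1.5 times their value except as follows. Between genotypes in LN, with a minimum of 20 UMIs 1 member was higher and 3 lower, and with 1 CPM added, means of single cells, thinning or without the 5% of cells with most UMIs 0 were lower. For tumor over LN in control mice, thinning left 5 higher of 26 members tested, and the changed library total gave 15 lower. For Mki67+ over Mki67- cells, thinning left 9 higher in the control and 13 in the CD8-IFNγRKO tumor, with 22 and 30 members tested. In the control tumor 1 member was lower without the *Cd2*, *Cd8a* and *Cd8b1* filter, without the 5% of cells with most UMIs, with the changed library total and with means of single cells. Between genotypes in Mki67+ cells, 2 were higher without an upper limit on genes or with means of single cells, and 2 were lower without the 5% of cells with most UMIs and 1 with means of single cells. For the S side over the G2/M side, no member of the control tumor was lower (0) without the 5% of cells with most UMIs or with 1 CPM added, and thinning left 2 higher and 0 lower of 3 members tested in the CD8-IFNγRKO tumor and none tested in the control tumor. Thinning changed the share of Mki67+ cells to 17.7% and 10.3%.

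Of the choices made after seeing the data, means over 5 and over 10 bins of cell cycle share left 0 members higher and 1 lower between genotypes in tumor. Classes from thinned cells left 10 higher with *Mki67* in the CD8-IFNγRKO tumor, 3 higher between genotypes in Mki67+ cells, and 0 lower on the S side of the control tumor. Thinning turned 3 single ratios, *Xrcc2* with *Mki67* in the control tumor (0.967) and, for the S over the G2/M side of the CD8-IFNγRKO tumor, *Brca2* (0.776) and *Chek2* (1.16). Thinning lowers the UMIs and so the members tested. Shares of all genes past 1.5-fold are not given beside the counts of this section, so that a moved count is no result about the members alone. Other causes were not tested.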

Other observations

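The summed level of the 39 genes was higher in LN than in the tumors in both Mki67 classes. In Mki67- cells it was 712 CPM in control LN and 724 in CD8-IFNγRKO LN, against 489 and 652 in the tumors. No value for all genes is given for these comparisons, so that they are no result about the members alone. In 42 Mki67+ cells of control LN and 39 of CD8-IFNγRKO LN, the summed level of the 39 genes was 1388 and 1343 CPM, against 861 and 1003 in Mki67+ cells of the tumors. *Clspn* stood at 86.2 and 105 CPM in those LN cells and at 0.714 and 0.632 CPM in Mki67- cells. *Ung* stood at 78.4 and 68.4 CPM in Mki67+ cells of LN, above 19.9 and 28.6 CPM in those of the tumors, and *Parp1* at 88.2 and 89.4 against 38.8 and 62.5 CPM. *Trp53* gave 206 and 205 CPM there against 103 and 125 CPM, and in Mki67- cells 183 and 189 CPM in LN against 81.4 and 102 in the tumors. *Ercc1* was lower in Mki67+ cells of LN, at 25.5 and 10.5 against 39.2 and 38.0 CPM. It had 13 and 4 UMIs in the Mki67+ cells of control and CD8-IFNγRKO LN. These comparisons were chosen after the data had been seen, and those of Mki67+ LN cells rest on few cells. In these Mki67+ LN cells *Ung* had 40 and 26 UMIs and *Parp1* 45 and 34.

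The ratio of each gene between the tumors was also computed with only the shares of UMIs in Mki67+ and Mki67- cells, or only the levels within those classes, set apart. For *Clspn* (1.68 in all) these were 1.32 and 1.39, for *Fancd2* (1.89) 1.35 and 1.52, for *Parp1* (1.74) 1.07 and 1.64, and for *Ung* (1.97) 1.13 and 1.97. The 2 values need not multiply to the whole. Mki67- cells differed between genotypes in the levels of the S phase and G2/M lists, so that levels within a class are not those of like cells. With the 5 bins of cell cycle share given equal weight, the ratio was 0.99 for *Clspn*, 1.12 for *Fancd2*, 1.43 for *Parp1* and 1.33 for *Ung*.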
